A study of Mus musculus with 6 samples.

Results

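The genes described here encode parts of the T cell receptor and chains that signal for it or for other receptors. They are the CD3 chains Cd3g, Cd3d and Cd3e, the adaptors Cd247 and Fcer1g, and the T cell receptor constant genes Trac, Trbc1 and Trbc2. They were measured by RNA sequencing in mouse spleen natural killer (NK) cells that carried the surface proteins CD27 and CD11b. The 8 genes, of 37991 in the count tables, were chosen by name and by role, with the difference between the genotypes in these same libraries already known; that difference is therefore given for them as a description and not as a test. All 8 had an entry, and 7 passed the filter on low counts; Cd3e did not.

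The 6 libraries came from 3 Rroid deficient and 3 wildtype samples, all on the C57BL6 background. Rroid is a noncoding RNA transcribed from an element near the gene Id2. The labels do not give the deletion itself, the age or sex of the mice, or whether each library came from its own mouse, so spreads and p-values measure the variation between these samples, which may be technical. Reads assigned to genes numbered 6146465 to 7363793 in deficient and 5823626 to 9216430 in wildtype libraries. Values are CPM, raw counts divided by library sizes that TMM had scaled, as mean ± SD with n = 3 per genotype unless given per library in the order of replicates 1, 2 and 3. Id2, whose protein binds E proteins and keeps them from DNA, had 62.3 ± 21.5 CPM in deficient and 382 ± 73.8 CPM in wildtype libraries. NK markers were abundant in both genotypes, with all 14 listed genes tested and a summed level of 12162 to 12896 CPM in deficient and 14077 to 16722 CPM in wildtype libraries; none passed in edgeR, 3 had an unadjusted p under 0.05 (5.29% of all genes tested did), and DESeq2 called 1, Gzma. Gzma and Gzmb, which encode granzymes, had the smallest p of these, with 2560 ± 217 and 209 ± 83.1 CPM in deficient and 4501 ± 866 and 381 ± 37.3 CPM in wildtype libraries. The libraries numbered 1 had the most tested genes at a count of 0, 5.57% in the deficient one and 5.63% in the wildtype one, against 0.23% to 2.43% in the other 4.

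A T cell receptor is an alpha and a beta chain that recognise antigen and have almost no cytoplasmic part of their own. Signalling falls to the chains bound to them, CD3 gamma, delta and epsilon and the zeta chain, whose cytoplasmic tails hold tyrosine motifs called ITAMs that recruit the kinase ZAP-70 once phosphorylated. NK cells have no rearranged antigen receptor, but they use zeta (encoded by Cd247) and the Fc receptor gamma chain (encoded by Fcer1g) as adaptors for the activating receptors NKp46, CD16 and NKR-P1C. The beta constant region has 2 near-identical genes, Trbc1 and Trbc2, each behind its own cluster of joining segments.

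Cd3g and Cd3d lie head to head on chromosome 9, with start sites 1355 bases apart in the annotation of build GRCm38, and Cd3e lies 27.84 kb beyond the start of Cd3d. The 250 bases before and 50 bases after the start of each are shown because the first pair differed between the genotypes by similar amounts while Cd3e was almost unread. The sequences are RefSeq's on build GRCm38.p6 (Cd3g at chr9:44980382-44980681 on the minus strand, Cd3d at chr9:44981536-44981835 on the plus strand, Cd3e at chr9:45009562-45009861 on the minus strand). Capitals mark CANNTG, the E-box word that E proteins bind.
Cd3g: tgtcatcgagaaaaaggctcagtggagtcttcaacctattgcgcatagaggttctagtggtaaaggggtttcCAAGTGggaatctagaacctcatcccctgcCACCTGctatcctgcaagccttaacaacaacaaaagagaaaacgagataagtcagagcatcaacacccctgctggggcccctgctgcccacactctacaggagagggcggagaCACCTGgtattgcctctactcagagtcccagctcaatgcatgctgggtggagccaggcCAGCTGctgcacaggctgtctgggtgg
Cd3d: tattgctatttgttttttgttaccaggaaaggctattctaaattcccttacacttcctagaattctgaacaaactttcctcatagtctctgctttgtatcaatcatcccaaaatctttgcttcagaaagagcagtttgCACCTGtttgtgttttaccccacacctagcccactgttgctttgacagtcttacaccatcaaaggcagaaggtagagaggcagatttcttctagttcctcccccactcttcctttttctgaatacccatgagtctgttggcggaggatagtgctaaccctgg
Cd3e: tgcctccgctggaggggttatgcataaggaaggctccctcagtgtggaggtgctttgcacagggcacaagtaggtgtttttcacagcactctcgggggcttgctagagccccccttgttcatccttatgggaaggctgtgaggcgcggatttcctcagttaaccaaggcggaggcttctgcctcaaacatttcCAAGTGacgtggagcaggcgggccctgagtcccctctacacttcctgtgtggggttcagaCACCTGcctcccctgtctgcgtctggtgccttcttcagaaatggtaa
The Cd3g window held 4 E-box words, the Cd3d window 1 and the Cd3e window 2; the windows of Cd247 and Fcer1g, on chromosome 1, held 2 each. Among 32851 promoter windows of the same length, 72.3% held at least 1 E-box word and 6.49% held 4 or more. The E-box form CAGGTG, searched on both strands and also counted among the CANNTG words, occurred 2 times in the Cd3g window and 1 time each in those of Cd3d, Cd3e and Cd247, and 20.2% of all windows held it. CAGCTG, another form of CANNTG, was in the Cd3g and Fcer1g windows and in 16.3% of all windows. TGTGGT, the core of the Runx word, on both strands, was in the Fcer1g window of these 5 and in 16.8% of all windows. A match describes letters and not binding.

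Of the CD3 chains, Cd3g and Cd3d held the largest differences of the set. Cd3g, the CD3 gamma chain, had counts of 466, 336 and 493 in deficient libraries and of 38, 43 and 53 in wildtype libraries. In CPM these were 67.2, 54.8 and 68.2 in the deficient libraries, against 5.69, 4.62 and 8.34 in the wildtype ones. Every deficient library lay more than 6 times above every wildtype library, and the deficient libraries lay close together.

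Cd3d, the CD3 delta chain, had counts of 167, 347 and 485 in deficient libraries and of 33, 63 and 55 in wildtype libraries. Its CPM were 24.1, 56.6 and 67.1 in deficient libraries and 4.94, 6.76 and 8.65 in wildtype libraries. The groups did not overlap, although deficient library 1 lay far below the other deficient libraries. The log2 fold change, deficient over wildtype, was 3.35 (SE 0.48) for Cd3g and 2.86 (SE 0.58) for Cd3d, which are 10.2-fold and 7.24-fold.

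Cd3e, the CD3 epsilon chain that pairs with both gamma and delta in T cells, had no read in any deficient library. Its counts in the wildtype libraries were 0, 3 and 0. A count of 0 allows up to 3 reads, which corresponds to 0.415 to 0.489 CPM in the deficient libraries and to 0.449 and 0.472 CPM in wildtype libraries 1 and 3, and wildtype library 2 had 0.322 CPM, so no difference was detectable at this depth. This limit covers counting error only. In the annotation, 135 exonic bases of Cd3e overlap an antisense gene that has no entry in the count tables. Per kilobase of exon, Cd3g and Cd3d had mean levels of 19.4 ± 2.27 and 27.1 ± 12.4 CPM in deficient libraries, and Cd3e was at 0. In wildtype libraries they had 1.90 ± 0.586 and 3.74 ± 1.02 CPM per kilobase, and Cd3e had 0.026.

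**Figure D1:**
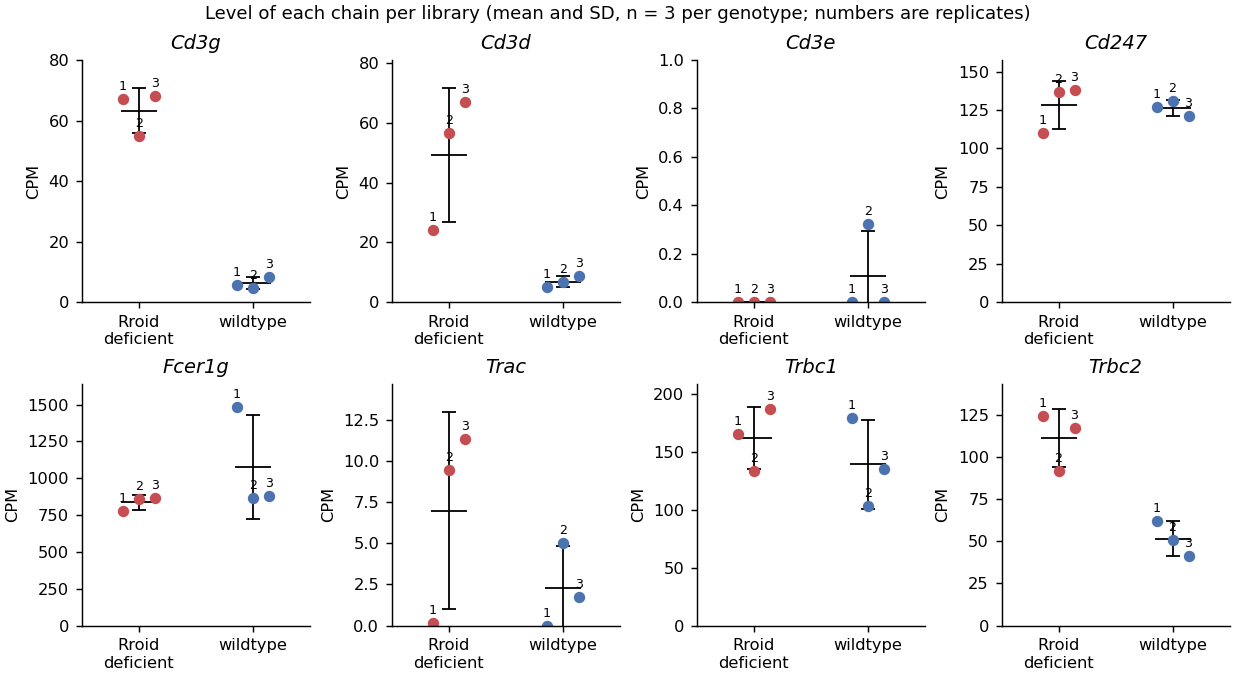
Level of each of the 8 genes in CPM on a linear axis from 0, with its own scale per panel; points are libraries with their replicate number, Rroid deficient in red on the left and wildtype in blue on the right, and lines are the mean and SD (n = 3). Cd3g, Cd3d and Trbc2 have all deficient libraries above all wildtype libraries, as have 6.03% of all genes tested, and Cd3e was read in wildtype library 2 alone.

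The adaptors that NK cells use overlapped between the genotypes. Cd247, which encodes the zeta chain, had 110 CPM in deficient library 1 and 137 and 138 CPM in deficient libraries 2 and 3. It had 127, 131 and 121 CPM in the wildtype libraries. The genotypes overlapped, and the means were 128 ± 15.9 CPM in deficient and 126 ± 4.96 CPM in wildtype libraries. Its log2 fold change of 0.02 (SE 0.23) had a 95% interval of -0.49 to 0.54, so a difference up to about that size in either direction could not be seen. In the annotation, 3007 of the 5329 exonic bases of Cd247 overlap Pou2f1 on the other strand, and whether reads were counted by strand is not stated, so the level of Cd247 per length is uncertain.

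Fcer1g, the Fc receptor gamma chain, was the most abundant of the 8 genes, with 779, 860 and 868 CPM in deficient libraries. The wildtype libraries had 1482, 867 and 878 CPM. Wildtype library 1 stood apart, and the other 5 libraries lay within 779 and 878 CPM. Its log2 fold change of -0.36 (SE 0.21) had an interval of -0.84 to 0.11, and the value was -0.074 without wildtype library 1.

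That library was also the highest for the other transmembrane adaptors of NK cells. Tyrobp, which encodes DAP12, had 968, 1169 and 1099.9 CPM in deficient libraries and 1602, 970 and 1110 CPM in wildtype libraries. Hcst, which encodes DAP10, had 89.7, 40.1 and 71.1 CPM in deficient libraries and 132 CPM in wildtype library 1, with 53.3 and 59.5 CPM in the other wildtype libraries. Neither passed edgeR's test over all genes (adjusted p = 0.936 and 0.945), nor had an unadjusted p under 0.05.

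The T cell receptor constant genes were read in NK cells of both genotypes, although in T cells they form part of the rearranged receptor. Trbc1 had counts of 1147, 819 and 1351 in deficient libraries and of 1197, 960 and 859 in wildtype libraries. Its CPM were 165, 134 and 187 in deficient libraries and 179, 103 and 135 in wildtype libraries. The genotypes overlapped, and a log2 fold change of 0.22 (SE 0.27) had an interval of -0.38 to 0.82.

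Trbc2 had counts of 864, 562 and 849 in deficient libraries and of 415, 472 and 263 in wildtype libraries. Its CPM were 125, 91.7 and 117 in deficient libraries and 62.2, 50.7 and 41.4 in wildtype libraries. All deficient libraries lay above all wildtype libraries, and the log2 fold change was 1.11 (SE 0.30), which is 2.16-fold.

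Trac, the alpha constant gene, was sparse, with counts of 1, 58 and 82 in deficient libraries and of 0, 47 and 11 in wildtype libraries. In CPM it had 0.144, 9.46 and 11.3 in deficient libraries and 0, 5.05 and 1.73 in wildtype libraries. The lowest library of each genotype was the one numbered 1, and the log2 fold change of 1.61 had an SE of 1.63, larger than the value itself.

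Trbc1 and Trbc2 share part of their sequence, and reads from the shared part do not tell them apart. Over their 518 coding bases, 23 differ, and only 1 of those lies among the 375 bases of the first exon. The stretch across the end of that exon, coding bases 341 to 400, is shown because it holds all 3 differences of the second exon; capitals mark the bases that differ, read from GENCODE transcripts on build GRCm38 (chromosome 6, plus strand).
Trbc1: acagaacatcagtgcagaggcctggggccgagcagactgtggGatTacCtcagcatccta
Trbc2: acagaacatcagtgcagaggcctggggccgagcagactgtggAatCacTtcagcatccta
The single difference in the first exon lies within coding bases 230 to 289, shown here with the same marking.
Trbc1: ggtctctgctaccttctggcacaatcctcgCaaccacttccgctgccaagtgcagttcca
Trbc2: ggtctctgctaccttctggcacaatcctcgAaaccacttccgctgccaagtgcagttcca
Of all windows of 100 bases, the read length in the labels, 28.2% of those in Trbc1 transcripts and 30.9% of those in Trbc2 transcripts occur without change in the other gene. A read from such a window cannot be assigned to one gene, so both levels, and their division, are uncertain. These windows are the same for both genotypes.

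Within each library, Trbc2 made up 43.0%, 40.7% and 38.6% of the reads of both beta constant genes in deficient libraries. In wildtype libraries the share was 25.7%, 33.0% and 23.4%. The shares did not overlap between the genotypes, with means of 40.8% ± 2.19 in deficient and 27.4% ± 4.97 in wildtype libraries, and this ratio does not depend on library scaling. The narrowest gap lay between deficient library 3 (95% Clopper-Pearson interval 36.6% to 40.7%, counting error only) and wildtype library 2 (30.5% to 35.5%).

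The share of Cd3d in the reads of Cd3d and Cd3g showed no such division. It was 26.4%, 50.8% and 49.6% in deficient libraries and 46.5%, 59.4% and 50.9% in wildtype libraries. Deficient library 1 was the lowest, with an interval of 23.0% to 30.0%, and the other 5 had overlapping intervals. These intervals cover counting error only, and replicate libraries differed by more than that. The share of Cd247 in the reads of Cd247 and Fcer1g was 12.4%, 13.7% and 13.7% in deficient libraries and 7.89%, 13.1% and 12.1% in wildtype libraries, with wildtype library 1 apart.

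**Figure D2:**
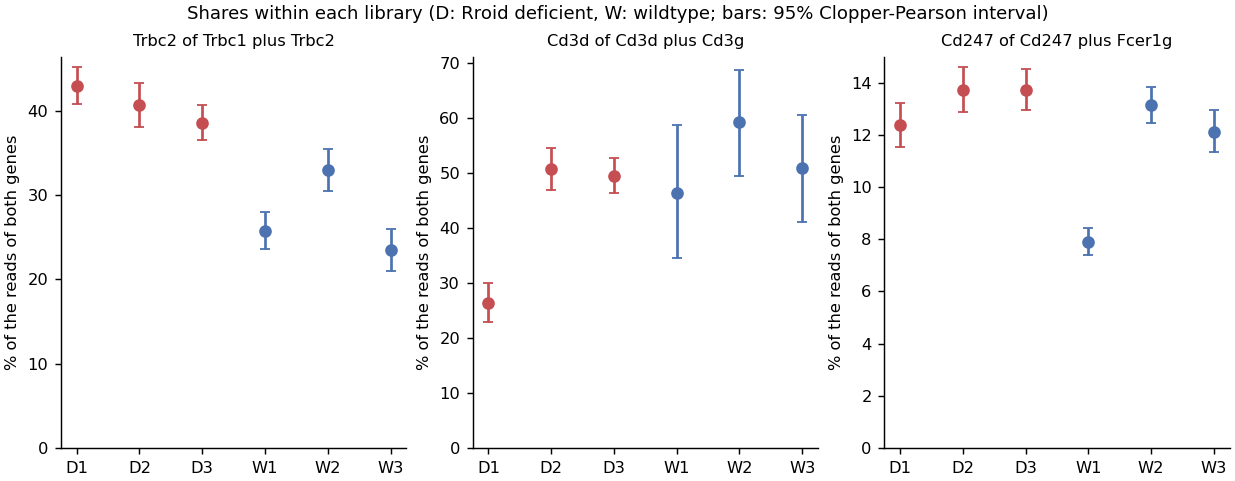
Share of one gene in the reads of a pair of genes, in percent, for each library (D1 to D3 Rroid deficient in red, W1 to W3 wildtype in blue); bars are 95% Clopper-Pearson intervals, which cover counting error. The Trbc2 share is 38.6% to 43.0% in deficient and 23.4% to 33.0% in wildtype libraries, while the other shares overlap between the genotypes apart from 1 library each.

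Summed by role, the CD3 chains had 113 ± 22.0 CPM in deficient libraries and 13.1 ± 3.40 CPM in wildtype libraries. Cd3g and Cd3d carried this sum, with Cd3e at a mean of 0 CPM in deficient and 0.107 CPM in wildtype libraries. The adaptors had 964 ± 64.9 CPM in deficient and 1202 ± 352 CPM in wildtype libraries, and 999 ± 1.07 CPM in wildtype libraries 2 and 3 alone. The constant genes had 280.1 ± 41.3 CPM in deficient and 193 ± 43.2 CPM in wildtype libraries.

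The levels per kilobase of exon order the genes within a genotype. In deficient libraries Fcer1g was highest at 956 ± 56.2 CPM per kilobase, followed by Trbc1 at 216 ± 35.7 and Trbc2 at 161 ± 25.0. The ranges of Trbc1 and Trbc2 overlapped, but Trbc1 lay above Trbc2 within every deficient library. Cd3d, Cd247 at 24.1 ± 2.98 and Cd3g came next and had overlapping libraries, and Trac had 7.47 ± 6.41. In wildtype libraries Fcer1g had 1231 ± 403 CPM per kilobase, Trbc1 186 ± 51.1, Trbc2 74.3 ± 15.1 and Cd247 23.7 ± 0.929. Cd3d, Trac at 2.42 ± 2.74 and Cd3g came last before Cd3e; Trac overlapped both CD3 chains, and Cd3d lay above Cd3g in every library. By these lengths, Cd3g and Cd3d stood near the level of Cd247 in deficient libraries and below it in wildtype libraries. The level of Cd247 per length is uncertain because its exons overlap Pou2f1, so its place in this order is uncertain too.

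In the quasi-likelihood test of edgeR, adjusted by Benjamini-Hochberg over all 11724 genes tested, 2 genes, or 0.0171%, passed an adjusted p of 0.05, and none of the 7 tested chains was among them. The smallest adjusted p of the set was 0.131, for Cd3g. Cd3g, Cd3d and Trbc2 had an unadjusted p under 0.05, as had 5.29% of all genes tested. DESeq2 on the same genes called 65 of 11433 with an adjusted p, or 0.569%, with Cd3g and Cd3d among them, and limma-voom called 1 gene, or 0.00853%, and no chain. All deficient libraries lay above all wildtype libraries in 3 of the 7 chains, and in 6.03% of all genes tested; the choice of the set used this contrast, so nothing is read from that share. A fold change over 2 in either direction was found for 4 of the 7, and for 20.3% of all genes tested. In these bulk samples, more cells of a kind that contain a transcript and more of it per cell cannot be told apart.

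**Figure D3:**
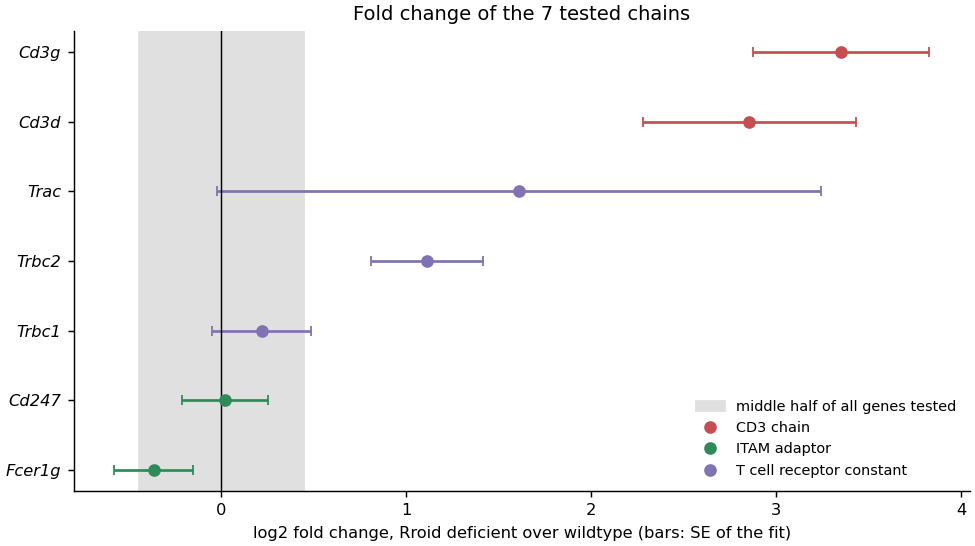
Log2 fold change, Rroid deficient over wildtype, of the 7 tested chains with the SE of the edgeR fit, coloured by role; the grey band holds the middle of all 11724 tested genes, between the quartiles of -0.45 and 0.45. Cd3g, Cd3d, Trac and Trbc2 lie to the right of the band, the bar of Trac reaches to 0, and Trbc1, Cd247 and Fcer1g lie inside it.

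The alpha and beta variable segments, which rearrangement places before the constant genes in T cells, were nearly unread. The 20 beta variable entries held 18 reads over all libraries and the 33 alpha variable entries 10 reads, against 9758 reads of Trbc1 and Trbc2 together and 199 of Trac. The entries do not cover every variable segment of the mouse.

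Joining segments were read more. The 7 segments of the cluster before Trbc1 had summed levels of 40.8, 77.3 and 57.3 CPM in deficient libraries and of 24.0, 23.1 and 37.4 CPM in wildtype libraries. These sums did not overlap, with all deficient libraries above all wildtype libraries as in 6.03% of all genes tested. Taken singly, Trbj1-1 and Trbj1-2 did not overlap, and the other segments of this cluster did. The 7 segments of the cluster before Trbc2 had 6.78, 6.69 and 17.2 CPM in deficient libraries and 27.6, 3.76 and 4.25 CPM in wildtype libraries, which overlapped. Of the constant genes behind these clusters, it was Trbc2 that did not overlap and Trbc1 that did. Among single beta joining segments, Trbj1-5 had the smallest p (16.1 ± 16.0 CPM in deficient and 3.26 ± 2.51 CPM in wildtype libraries, edgeR adjusted p = 0.914, unadjusted p = 0.0487). Of 17 tested segments of all classes, none passed in edgeR, DESeq2 on the same genes or limma-voom. In edgeR, 2 of the 17 had an unadjusted p under 0.05, against 5.29% of all genes tested. Alpha joining segments summed to 157 reads over all libraries, with 59, 35 and 32 in deficient and 1, 10 and 20 in wildtype libraries. The delta joining segments had summed levels of 23.1, 18.0 and 15.8 CPM in deficient libraries and of 6.89, 4.40 and 8.49 CPM in wildtype libraries, while the delta variable segments had 31.3, 22.5 and 43.8 CPM in deficient and 50.5, 45.7 and 43.4 CPM in wildtype libraries.

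Other genes of T cells were compared to see what accompanied the CD3 chains. The list of T cell surface, lineage and gamma and delta genes had 23 entries, of which 8 were tested, and 5 had no read in any library. None passed in edgeR, DESeq2 on the same genes or limma-voom, and 3 of the 8 had an unadjusted p under 0.05 in edgeR, against 5.29% of all genes tested. The median log2 fold change of the 8 was -0.43, with 3 above 0 and 5 below, against a median of 0.02 over all genes tested. Their summed level, with untested members, was 431 to 619 CPM in deficient and 339 to 522 CPM in wildtype libraries.

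Cd28, the costimulatory receptor, had 468, 273 and 271 CPM in deficient libraries and 190.2, 179 and 160.5 CPM in wildtype libraries (log2 fold change 0.93 with SE 0.25, adjusted p = 0.757 in edgeR). With Lef1, a transcription factor of T and NK cells (109, 118 and 81.9 CPM in deficient and 225, 113 and 102.6 CPM in wildtype libraries), it supplied most of the summed level. Tcrg-C4, a gamma constant gene, had counts of 11, 181 and 82 in deficient libraries and of 4, 14 and 1 in wildtype libraries (edgeR adjusted p = 0.895). Bcl11b, a transcription factor that commits precursors to the T cell lineage, went the other way, with 1.30, 2.94 and 2.90 CPM in deficient libraries and 23.1, 10.4 and 7.71 CPM in wildtype libraries (edgeR adjusted p = 0.906).

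Of the other listed T cell genes, some were read and many were at or near 0. Icos had 17.8 ± 13.8 CPM in deficient and 23.7 ± 16.8 CPM in wildtype libraries. Ubash3a had 25.0 ± 3.34 CPM in deficient and 34.0 ± 20.4 CPM in wildtype libraries. Foxp3 had counts of 43, 88 and 1 in deficient and of 11, 10 and 36 in wildtype libraries. Tcrg-C1, a gamma constant gene, had counts of 0, 0 and 20 in deficient and of 0, 0 and 2 in wildtype libraries. Cd6, Cd8a, Cd40lg, Ptcra and Dntt had no read in any library. Cd5 had counts of 2, 0 and 1 in deficient and of 0, 4 and 0 in wildtype libraries, and Themis had 1 read in all. Trat1 had no read in a deficient library, and 0, 4 and 7 reads in wildtype libraries. Cd4 and Cd8b1, the coreceptor chains, were read in wildtype library 1 alone, with 57 and 37 counts. Zbtb16, the transcription factor of NKT cells, had 33, 16 and 3 counts in deficient and 36, 31 and 33 in wildtype libraries. In the deficient libraries, Cd4, Cd6, Cd8a and Cd8b1 were at 0. Every deficient library lay above every wildtype library for Cd28, as for Cd3g and Cd3d and for 6.03% of all genes tested. For Tcrg-C4 this held in CPM by a small margin only. Its counts overlapped, with 11 in deficient library 1 against 14 in wildtype library 2. The part of Cd28 and Tcrg-C4 in the differences described was not tested.

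**Figure D4:**
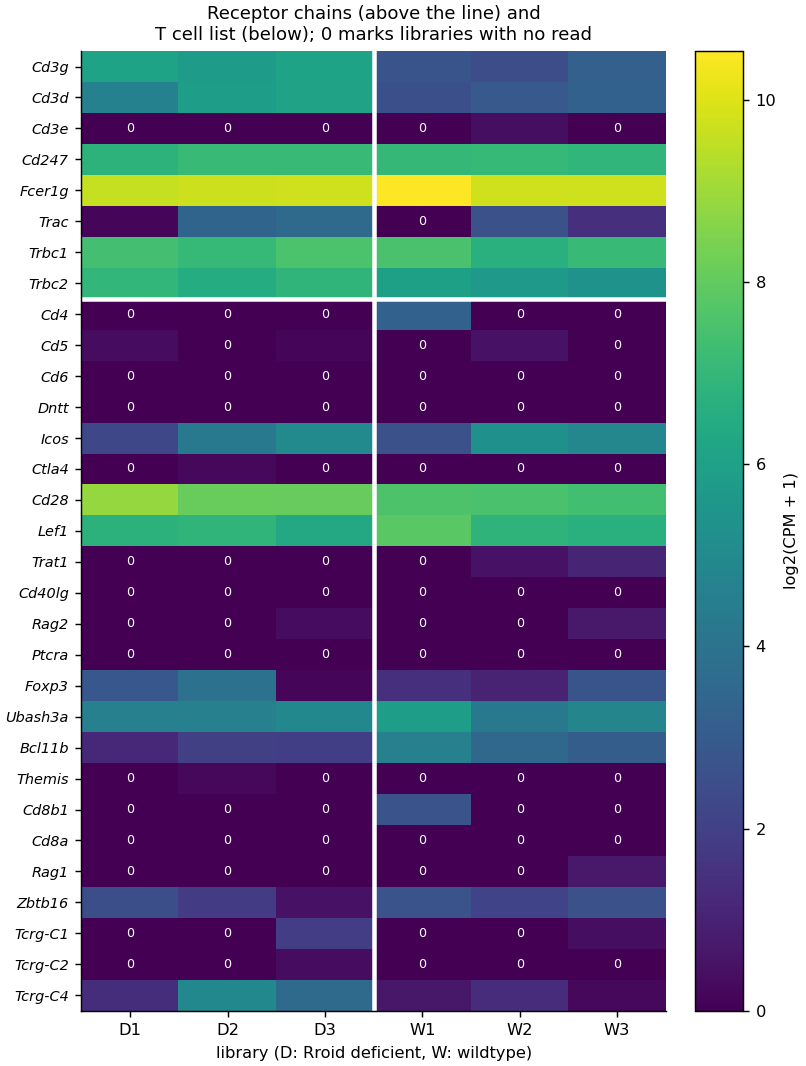
Level of the 8 receptor chains (above the white line) and of the 23 listed T cell genes (below it) as log2(CPM + 1), in colour, by library (D1 to D3 Rroid deficient, W1 to W3 wildtype); a printed 0 marks a library with no read. Above the line Fcer1g is the brightest row, and Cd3g and Cd3d are brighter in deficient than in wildtype libraries. Below it many rows hold a printed 0, and Cd28, Lef1, Icos and Ubash3a are the brightest. Cd28 and Lef1 are brighter than Cd3g and Cd3d in every deficient library.

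Markers of other cells that the sort could hold were low, with exceptions. Of the B cell markers, Pax5 and Blk were among those with no read, and the listed genes summed to 328 to 656 CPM in deficient and 236 to 343 CPM in wildtype libraries, nearly all of it Ighm (603, 406 and 316 CPM in deficient and 249, 330.2 and 224 CPM in wildtype libraries). Cr2 was the other B cell marker of smallest p, with 42.5, 9.63 and 9.96 CPM in deficient and 0, 8.81 and 8.49 CPM in wildtype libraries. Cd79a had counts of 45, 0 and 12 in deficient and of 53, 24 and 12 in wildtype libraries. Igkc had counts of 0, 23 and 0 in deficient and of 91, 8 and 9 in wildtype libraries. Of the myeloid markers, Cd14, Fcgr1, Flt3, Mpo and S100a8 had no read, and the list summed to 456 to 543 CPM in deficient and 462 to 526 CPM in wildtype libraries, mostly Itgax, which NK cells also express. H2-Aa had counts of 116, 1 and 8 in deficient and of 11, 6 and 1 in wildtype libraries. Lyz2 had counts of 0, 0 and 55 in deficient and of 0, 0 and 12 in wildtype libraries. Csf1r had counts of 0, 16 and 20 in deficient and of 19, 12 and 26 in wildtype libraries. Ly6c2 had 57.5, 54.3 and 81.9 CPM in deficient and 18.0, 26.4 and 37.3 CPM in wildtype libraries, and Cd68 had 30.4, 21.0 and 19.6 CPM in deficient and 2.25, 11.3 and 1.10 CPM in wildtype libraries. Erythroid and platelet markers summed to at most 5.25 CPM in deficient and 17.5 CPM in wildtype libraries, and Alas2, the 1 tested, had 1.25 ± 1.59 CPM in deficient and 9.54 ± 5.77 CPM in wildtype libraries. No member of these 3 lists passed in edgeR, DESeq2 on the same genes or limma-voom. In edgeR, 1 of 4 tested B cell and 2 of 5 tested myeloid genes had an unadjusted p under 0.05, against 5.29% of all genes tested. The part of Ighm, Cr2, Ly6c2 and Cd68, which were higher on average in deficient libraries like Cd3g, in the differences described was not tested.

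The receptors that pair with zeta or the Fc receptor gamma chain were compared with their adaptors. Of 6 listed, 5 were tested and Fcgr4 had no read. None passed in edgeR, DESeq2 on the same genes or limma-voom. In edgeR, 1 of the 5 had an unadjusted p under 0.05, against 5.29% of all genes tested, and the median log2 fold change was -0.33. Klrb1c, which encodes NKR-P1C, had 899, 756 and 732 CPM in deficient and 954, 1051 and 997 CPM in wildtype libraries (log2 fold change -0.33 with SE 0.15, adjusted p = 0.914 in edgeR). Fcgr3, which encodes CD16, had 24.5, 25.0 and 29.9 CPM in deficient and 63.1, 46.3 and 39.8 CPM in wildtype libraries (log2 fold change -0.91 with SE 0.41, adjusted p = 0.914 in edgeR). In both, the highest deficient library lay below the lowest wildtype library, as in 6.33% of all genes tested. Ncr1, which encodes NKp46, had 940.1 ± 61.5 CPM in deficient and 1015 ± 8.66 CPM in wildtype libraries. Of the 8 receptors that pair with DAP12 or DAP10, 5 were tested; none passed in these tools or had an unadjusted p under 0.05 in edgeR, the median log2 fold change was 0.08, and Klrk1 and Klrd1 had the smallest p, with 747 ± 25.7 and 456 ± 28.4 CPM in deficient and 958 ± 165 and 553 ± 11.5 CPM in wildtype libraries.

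The kinases, phosphatases and scaffolds that act at or after ITAM phosphorylation, and the factors they activate, were read in both genotypes. Of 31 entries, 30 were tested, and none passed in edgeR, DESeq2 on the same genes or limma-voom; 3 had an unadjusted p under 0.05 in edgeR, against 5.29% of all genes tested. Of the 30, 20 had a log2 fold change above 0 and 10 below, with a median of 0.13. Ptprc, the CD45 phosphatase that activates Src kinases, had 4922, 4703 and 4658 CPM in deficient and 2979, 3664 and 3664 CPM in wildtype libraries (log2 fold change 0.47 with SE 0.12, adjusted p = 0.645 in edgeR). Nfatc1, a transcription factor activated by calcium signalling, had 320, 269 and 307 CPM in deficient and 433, 390.4 and 415 CPM in wildtype libraries (log2 fold change -0.47 with SE 0.17, adjusted p = 0.906 in edgeR). The summed level of the list was 10131 to 10986 CPM in deficient and 8316 to 8976 CPM in wildtype libraries, and Ptprc alone made up the largest part of it.

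The genes around the CD3 locus were examined because Cd3g and Cd3d share it. Of 22 entries whose start lies within 250 kb of that of Cd3g, 9 were tested, and 8 had no read in any library. Apart from Cd3g and Cd3d, 7 were tested; none passed in edgeR, DESeq2 on the same genes or limma-voom, and none had an unadjusted p under 0.05 in edgeR. Kmt2a, a histone methyltransferase and the most abundant neighbour, had 695 ± 54.0 CPM in deficient and 676 ± 184 CPM in wildtype libraries (log2 fold change 0.04, SE 0.20). Ube4a, a ubiquitin ligase and the nearest tested gene on the Cd3g side, had 75.1 ± 10.5 CPM in deficient and 66.5 ± 22.1 CPM in wildtype libraries (log2 fold change 0.18, SE 0.34). Arcn1, a coatomer subunit, had 120.3 ± 9.08 CPM in deficient and 97.0 ± 19.2 CPM in wildtype libraries. Ift46 had 8.80 ± 6.52 CPM in deficient and 14.8 ± 6.62 CPM in wildtype libraries, Atp5l had 1.14 ± 0.384 CPM in deficient and 2.48 ± 0.0989 CPM in wildtype libraries, and BC049352 had 5.92 ± 5.14 CPM in deficient and 2.21 ± 0.572 CPM in wildtype libraries. Mpzl3, beyond Cd3e, had 20.6 ± 27.6 CPM in deficient and 6.70 ± 1.89 CPM in wildtype libraries, carried by deficient library 1 with 361 reads against 4 and 65 in the other deficient libraries. Ift46, Atp5l, Mpzl3 and BC049352 had SE of 0.88 to 1.16 on the log2 scale, so differences of several fold could go unseen there.

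**Figure D5:**
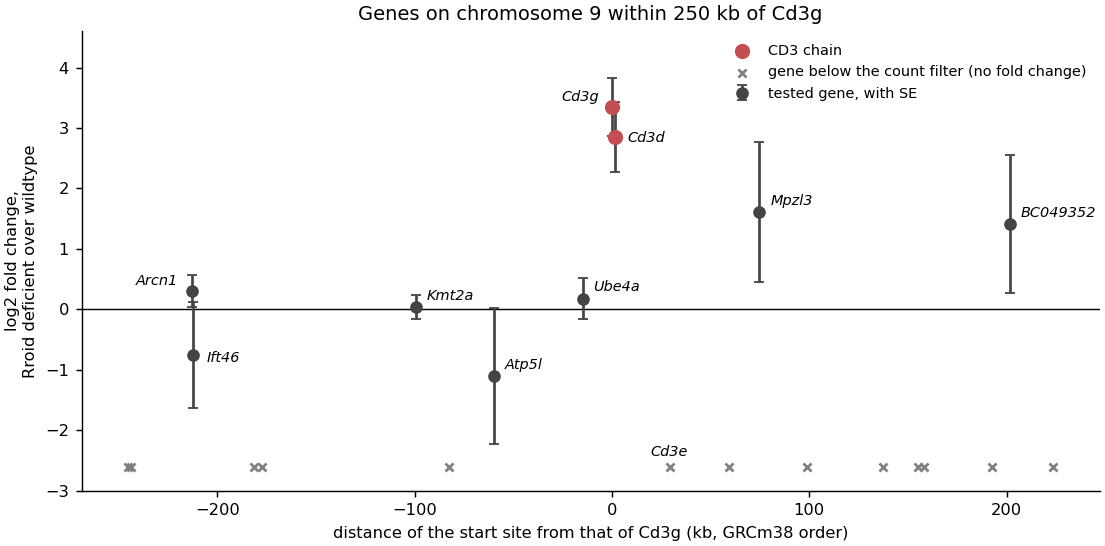
Log2 fold change, Rroid deficient over wildtype, of genes on chromosome 9 by the distance of their start site from that of Cd3g in kb; points are the 9 tested genes with the SE of the edgeR fit, the CD3 chains in red, and crosses at the foot mark genes below the count filter, Cd3e among them. Cd3g and Cd3d stand at 3.35 and 2.86, and Kmt2a, Ube4a and Arcn1 lie between 0.04 and 0.31.

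Likeness to Cd3g was measured as the Pearson correlation of log2(CPM + 1) over the 6 libraries, among 9797 other tested genes that averaged 5 CPM or more. The libraries form 2 genotype groups, so a high value can record no more than a difference between these groups, and it carries no p. Among the chains, Cd3d had 0.93 (rank 38) and Trbc2 0.91 (rank 58), Trbc1 had 0.47, Cd247 0.003 and Fcer1g -0.54; Trac and Cd3e averaged less than that. The 5 genes of highest correlation were Xcl1, a chemokine (0.995, with 375 ± 0.823 CPM in deficient and 230.4 ± 17.3 CPM in wildtype libraries), 2010016I18Rik (0.989), Dnaja1, an Hsp40 co-chaperone (0.987), Mrpl30, a mitochondrial ribosomal protein (0.985), and Gimap7, a GTPase of the immunity-associated family (0.983). Since Cd3g itself divided the genotypes, choosing these 5 by likeness used the same contrast, and no test of them is given.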

How the data were processed

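Per the labels' protocols, libraries were built with a Nugen Ovation V2 and a KAPA kit and read from 1 end over 100 bases. Per the submitters' processing notes, tools included HTSeq 0.6.1, TopHat2 2.1.0, Trimmomatic 0.33 and DESeq2, with builds NCBIM37 and mm9. Neither order, settings nor use of strand is stated there. The authors deposited raw counts, whole numbers of reads per Ensembl gene, 1 table per library, with 5 closing rows that name no gene. Those rows held 80.0% to 84.4% of the reads listed and entered neither library sizes nor tests. Among them, reads that fell in no counted gene numbered 20746026 to 27977456 per library. In every library these outnumbered the reads assigned to genes, and how this bears on single genes such as Cd3e or Cd247 was not tested.

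Symbols came from GENCODE vM21 (build GRCm38), which named 32919 of 37991 genes. It also gave exonic lengths, gene order and overlaps, which may differ from the annotation the authors counted on. Promoter windows are RefSeq's on GRCm38.p6; 5 of the 8 chains matched.

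The test was edgeR 4.0.16 in R 4.3.3: TMM scaling, the filterByExpr filter, a quasi-likelihood fit with genotype as its one term, and Benjamini-Hochberg adjusted p at 0.05. The F statistic and the fold change gave each SE. The test was checked on simulated data. Also run were DESeq2 1.42.0, limma-voom (limma 3.58.1), RLE size factors, no filter, a stricter filter (10 counts in 3 libraries and a mean of 2 CPM), library sizes without the 50 most abundant genes, the replicate number as a block, and libraries left out. Replicate libraries differed by more than sampling noise (lowest chi-square over its degrees of freedom 22.1). Figures were drawn with matplotlib 3.10.9.

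The chains, lists and tests were chosen with earlier results of these data known. Named were the 8 chains, per list the passing genes or else the 2 of smallest p, tested genes within 250 kb of Cd3g, the 5 genes most like Cd3g and T cell receptor segments as sums. Id2, Ncr1, Bcl11b, Itgax, Lef1, Icos, Ubash3a and Trbj1-5 were named after their values were seen. So were Foxp3, Tcrg-C1, Cd79a, Igkc, H2-Aa, Lyz2, Csf1r and the T cell, B cell and myeloid genes at or near 0.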

Additional observations from a re-analysis of the deposited data

How the results depend on the processing

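The number of genes passing was 2 in the test as reported. DESeq2 called 65 on the filtered genes and, in a run added after seeing the data, 88 without a filter, edgeR without a filter 98, and limma-voom 1. With the replicate number as a block (replicate block) it was 0, and it was 0 without any 1 of the 6 libraries (lowest 0, highest 0) and without both libraries numbered 1. The numbers do not pair the libraries: deviations of same-numbered libraries from their genotype means correlated at 0.014, -0.017 and 0.040. The T cell list, with 0 passing, had 1, Tcrg-C4, under DESeq2 without a filter. Cd3g kept its direction in all 15 refits (log2 fold change 3.17 to 3.61), as did Cd3d (2.56 to 3.18), Trbc2 (0.97 to 1.26), Trac (1.02 to 2.98), Trbc1 (0.042 to 0.43) and Fcer1g (-0.50 to -0.020). Cd3g and Cd3d passed in 3 of them, both DESeq2 runs and edgeR without a filter, and Trbc2 in 1, DESeq2 without a filter. Cd247, near 0, changed sign without wildtype library 3 (-0.013), deficient library 2 (-0.031) or deficient library 3 (-0.038), with a range of -0.038 to 0.117 over single libraries left out; the cause was not tested. Depth limits what can be said of a difference in Cd3e between the genotypes. Its level also depends on the annotation and use of strand in counting, which are not stated. Shared 100-base windows limit the division between Trbc1 and Trbc2.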
